A study of Mus musculus with 4 samples.

Results

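The urokinase system and the protease-activated receptors were examined in cultured mouse keratinocytes labelled wild type or deficient in the glucose transporter Glut1. The group was defined by 10 gene names, and a gene entered through the array row whose annotation gives that symbol alone. Of the 10, 9 were among the 22180 genes tested. They were the urokinase gene Plau, its receptor gene Plaur, the tissue-type activator Plat, tissue factor F3, the receptor genes F2r, F2rl2 and F2rl3, the inhibitor gene Tfpi and the thrombomodulin gene Thbd. The receptor gene F2rl1 has no value here. Each of the 9 had a single row, so the choice of the brightest row, which the rule provides for, decided nothing. The names were put together with earlier results of this genotype comparison known, so the members are described and no p-value is given for them as a group.

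Urokinase is a secreted serine protease that cleaves plasminogen to plasmin. Its receptor, held in the membrane by a lipid anchor, keeps it at the cell surface, and epidermal keratinocytes are known to produce both when they migrate into a wound. Protease-activated receptors are G protein-coupled receptors that a protease switches on by cutting the N terminus, and thrombin, formed downstream of tissue factor, is the best known of these proteases.

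Primary keratinocytes came from 1-week-old C57BL/6J mice that were homozygous for a floxed Glut1 allele (Glut1_fl/fl). Those called wild type carried the floxed alleles only, and those called Glut1-deficient also carried K14 Cre, a recombinase under control of the keratin 14 promoter, which is known for its activity in basal keratinocytes; deletion in other cells of the dish was not measured. There were 4 mice per genotype, and plates were grown in a low-calcium serum-free medium (0.05 mM CaCl2) with EGF at 5 ng/ml, insulin, hydrocortisone and pituitary extract. Equal numbers of cells were replated on day 3 of culture and lysed after 1 more day. Every array received RNA from a pool of 2 plates with the same genotype, and there were 2 arrays for each. Lysates were made from 1500000 cells per wild-type sample and from 1000000 per Glut1-deficient sample.

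Values are log2 intensities, made comparable between arrays by quantile normalization, so a difference of 1 is a 2-fold change relative to the other genes. The 4 array medians lay between 4.07 and 4.11, as that normalization brings about. The number of arrays limits the precision. Krt14, the basal keratin, read 12.56 and 12.54 on the wild-type arrays and 12.15 and 12.21 on the others. The Slc2a1 row, whose probes cannot be placed against the deleted part, read 11.09 ± 0.056 and 11.01 ± 0.003 (SD, n = 2 each) and so checks nothing about the genotype, which is named by its label. Limma called 630 genes, 2.84% of all tested, at a Benjamini-Hochberg adjusted p under 0.05, of which 397 were higher and 233 lower on the Glut1-deficient arrays. A gene is said to rise or fall only if it passed.

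On the arrays labelled Glut1-deficient the urokinase receptor gene and the receptor gene F2rl2 rose, whereas urokinase itself read lower without passing the test. F2rl2 rose 3.32-fold and Plaur 1.86-fold, and the Plau row was 2.41-fold lower. Tissue factor, F2r and Tfpi read between 1.29-fold and 1.45-fold higher with no overlap between the genotypes, and Plat, Thbd and F2rl3 overlapped. Thus 2 of the 9 members rose, where 1.79% of all genes did, 0 fell in limma, where 1.05% of all genes did, and 7 did not pass. At an unadjusted p under 0.05 the members counted 5 higher and 1 lower, 6 of 9 where 22.2% of all genes were under it. With any 1 of the 4 arrays left out, 0 of all genes passed in limma (2948 to 4627 at an unadjusted p under 0.05). In that design 1 genotype has a single array and the spread comes from the other alone, so the loss of calls says little about these genes. The adjusted p of F2rl2 then ran from 0.0685 to 0.212 and that of Plaur from 0.108 to 0.249, while their log2 differences stayed between 1.68 and 1.78 and between 0.82 and 0.97. The median log2 difference was 0.37 over the members and -0.007 over all genes, and these figures describe a group that was picked with the comparison in view.

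**Figure D1:**
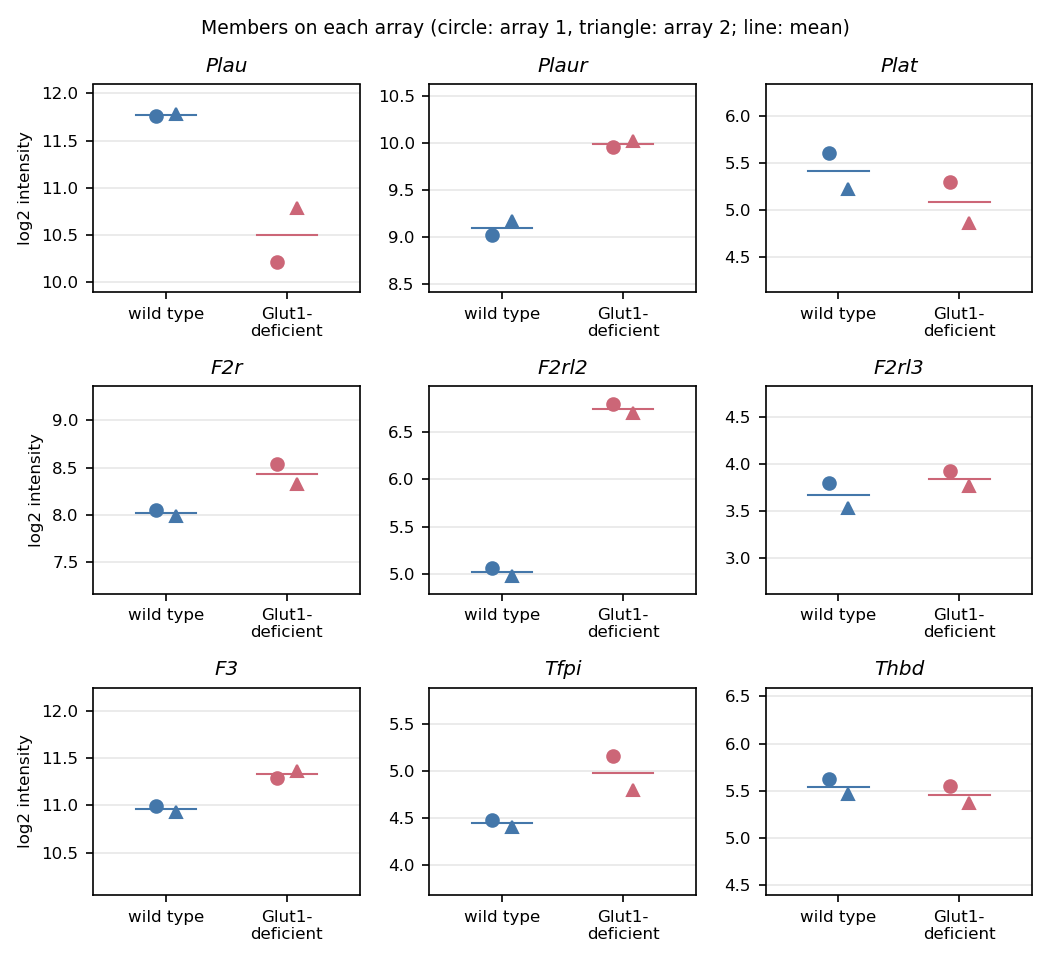
Log2 intensity of the 9 members on each array, wild type in blue and Glut1-deficient in red, array 1 as a circle, array 2 as a triangle and the mean as a line. All panels span the same 2.2 log2 units, and F2rl2, Plaur and Plau show the widest gaps between the genotypes.

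The start-site regions of the 2 genes that rose are shown with those of F2r and F3 because the 4 share a short sequence. RefSeq start-site windows (assembly GRCm38.p6, 250 bases before to 50 after the start) were at hand for 6 of the members, namely Plaur, F2rl2, F2r, F3, Tfpi and F2rl3. All 6 had a positive log2 difference. No window was at hand for F2rl1, nor for Plau, Plat and Thbd, whose differences were negative. The search therefore cannot relate the letters to the direction of a difference. The windows were searched on both strands for TGACTCA, the letters bound by AP-1 factors of the Jun and Fos families. Capitals mark the match, and each line reads 5′ to 3′ on the strand of the gene, so that a match on the opposite strand appears as TGAGTCA. The windows are chr7:24462233-24462532 (+) for Plaur, chr13:95696670-95696969 (+) for F2rl2, chr13:95618417-95618716 (-) for F2r and chr3:121723287-121723586 (+) for F3.
Plaur: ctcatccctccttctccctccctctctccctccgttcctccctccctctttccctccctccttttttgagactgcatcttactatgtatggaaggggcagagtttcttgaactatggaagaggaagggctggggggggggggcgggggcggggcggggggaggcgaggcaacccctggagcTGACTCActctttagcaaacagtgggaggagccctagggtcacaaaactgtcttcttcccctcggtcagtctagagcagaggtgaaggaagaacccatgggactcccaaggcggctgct
F2rl2: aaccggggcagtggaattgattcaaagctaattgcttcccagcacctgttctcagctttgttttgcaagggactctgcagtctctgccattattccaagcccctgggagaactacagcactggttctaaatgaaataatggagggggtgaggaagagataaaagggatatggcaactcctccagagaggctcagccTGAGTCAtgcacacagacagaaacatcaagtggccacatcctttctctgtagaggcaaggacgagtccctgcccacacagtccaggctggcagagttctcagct
F2r: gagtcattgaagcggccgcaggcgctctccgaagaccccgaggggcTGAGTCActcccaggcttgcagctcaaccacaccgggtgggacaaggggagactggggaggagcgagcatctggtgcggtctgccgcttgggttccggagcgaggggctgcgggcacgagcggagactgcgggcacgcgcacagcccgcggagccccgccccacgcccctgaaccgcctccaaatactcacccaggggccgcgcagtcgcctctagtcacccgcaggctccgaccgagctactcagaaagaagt
F3: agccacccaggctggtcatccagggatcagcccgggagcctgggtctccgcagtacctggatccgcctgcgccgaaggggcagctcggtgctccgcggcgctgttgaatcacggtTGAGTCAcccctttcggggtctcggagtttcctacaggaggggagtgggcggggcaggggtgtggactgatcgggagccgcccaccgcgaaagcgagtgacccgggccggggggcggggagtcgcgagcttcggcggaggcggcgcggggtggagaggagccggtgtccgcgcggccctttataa
The match begins 69 bases before the start in Plaur, 54 in F2rl2, 204 in F2r and 135 in F3. It was found in 4 of the 6 members, or 4 of their 7 windows since Tfpi has 2, and in 5.2% of the 32851 windows in the RefSeq table, and it was not found in the windows of Tfpi or F2rl3. The GC box letters GGGCGG, searched on both strands with overlaps allowed, occurred 3 times in Plaur, 3 times in F3, once in F2r and not in F2rl2, and 35.7% of all windows held them. The letters TATAAA were searched in the same way, and 13.6% of all windows held them. They occurred once in F3 and once in a Tfpi window, and not in Plaur, F2rl2, F2r or F2rl3. Both matches were on the opposite strand. Counted from the start, the F3 match began at 43, after it, and the Tfpi match at -127, before it. The F3 and F2r windows were 70.3% and 68.7% G or C, that of Plaur 59.3% and that of F2rl2 50.7%, beside a median of 52.7%. A match of letters describes the window and does not show that a factor was bound.

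Plau encodes urokinase, the protease. It read 11.76 and 11.78 on the wild-type arrays and 10.21 and 10.79 on the Glut1-deficient arrays. Both Glut1-deficient arrays lay below both wild-type arrays, with 0.97 between the nearest of them, and the Glut1-deficient pair was itself 0.57 apart while the wild-type pair was 0.02 apart. The log2 difference was -1.27 (SE 0.2, 95% interval -1.78 to -0.75), and limma's adjusted p over all genes was 0.0512, just above the threshold. Plau ranked 650 by p where 630 genes passed. Of the 60 genes with a more negative difference 44 passed. The value ran from -1.555 without Glut1-deficient array 2 to -0.98 without array 1 of that genotype. Some alternatives put the row past limma's threshold, namely median centring (adjusted p = 0.0481) and the mean of each gene's rows (adjusted p = 0.0495). Variance following intensity did so too (limma adjusted p = 0.00383), in a fit where 2671 of all 22180 genes passed. Other alternatives did not, namely a repeated quantile normalization (limma adjusted p = 0.0533) and all rows tested (limma adjusted p = 0.0517). With array number as a replicate block the row did not pass either (limma adjusted p = 0.0851).

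Plaur encodes the urokinase receptor, a protein of 3 Ly6-type domains on a glycolipid anchor. It read 9.02 and 9.17 on the wild-type arrays and 9.96 and 10.02 on the Glut1-deficient ones. The Glut1-deficient pair, 0.06 apart, lay at least 0.79 above the wild-type pair. The rise was 0.89 on the log2 scale (SE 0.097, 95% interval 0.64 to 1.14), or 1.86-fold with an interval of 1.56 to 2.21 (limma adjusted p = 0.028). The receptor row was therefore higher on the same arrays on which the row of its ligand was lower.

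Plat, the tissue-type plasminogen activator, acts mainly on fibrin-bound plasminogen. It read 5.60 and 5.22 on the wild-type arrays and 5.30 and 4.86 on the Glut1-deficient arrays. The genotypes overlapped, since the arrays of a genotype differed by 0.38 and 0.44. The log2 difference was -0.33 (95% interval -0.86 to 0.19; limma adjusted p = 0.41), so the interval ran from 0.551-fold to 1.14-fold of wild type.

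**Figure D2:**
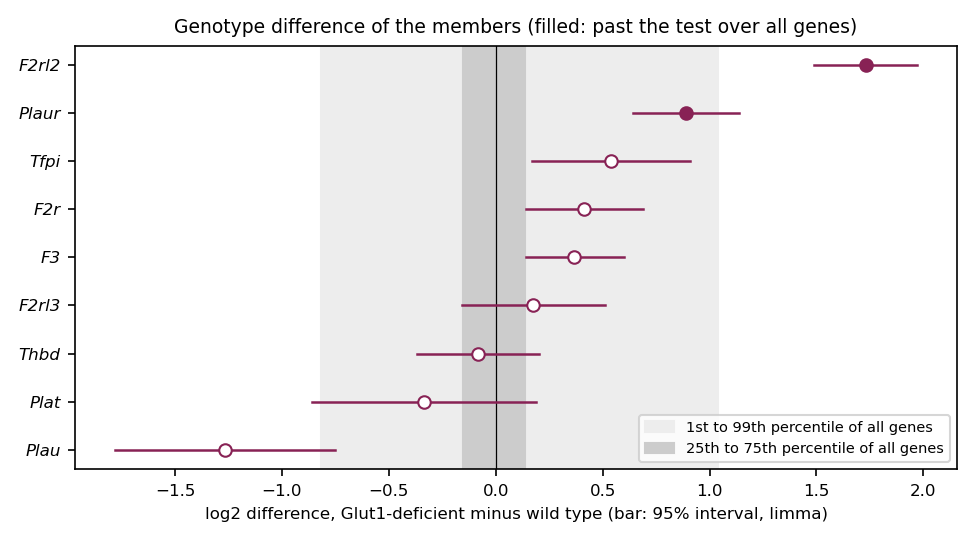
Log2 difference of each member, Glut1-deficient minus wild type, with limma's 95% interval, filled where the gene passed the test over all genes. Grey bands give the 25th to 75th percentile (-0.15 to 0.14) and the 1st to 99th percentile (-0.82 to 1.04) of all 22180 genes, and F2rl2 and Plau lie outside the wider one on opposite sides.

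F2rl2 encodes protease-activated receptor 3, which binds thrombin and in mouse platelets presents it to another receptor of the family. It read 5.06 and 4.98 on the wild-type arrays and 6.80 and 6.70 on the Glut1-deficient arrays. The arrays of a genotype agreed within 0.10, and the genotypes were at least 1.64 apart. The difference was 1.73 on the log2 scale (SE 0.092, 95% interval 1.49 to 1.97), a rise of 3.32-fold with an interval of 2.82 to 3.92 (limma adjusted p = 0.0129). Only 60 of all genes had a larger positive difference.

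F2r encodes protease-activated receptor 1, the main thrombin receptor of many stromal and endothelial cells. It read 8.05 and 7.99 on the wild-type arrays and 8.54 and 8.33 on the Glut1-deficient arrays. Both Glut1-deficient arrays were higher, by 0.28 at the least, and array 1 was the higher of them. The log2 difference was 0.41 (95% interval 0.14 to 0.69) and did not pass (limma adjusted p = 0.114). It did when the variance followed intensity (limma adjusted p = 0.023), as did 2671 of all 22180 genes. F2rl3, protease-activated receptor 4, read 3.80 and 3.53 on the wild-type arrays and 3.92 and 3.76 on the others. These overlapped, and the difference of 0.18 had a 95% interval of -0.16 to 0.51 (limma adjusted p = 0.504).

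F3 encodes tissue factor, the membrane protein that starts coagulation with factor VII and is present in normal epidermis. It read 10.99 and 10.93 on the wild-type arrays and 11.29 and 11.37 on the Glut1-deficient arrays. The genotypes were separated by 0.30, against 0.06 and 0.08 within them. The log2 difference of 0.37 (SE 0.088, 95% interval 0.14 to 0.60) was 1.29-fold and did not pass (limma adjusted p = 0.103). It passed when the variance followed intensity (limma adjusted p = 0.00426), a fit in which 2671 of all 22180 genes passed. Tfpi, which encodes the Kunitz inhibitor of the tissue factor complex, read 4.48 and 4.41 on the wild-type arrays and 5.16 and 4.80 on the Glut1-deficient arrays. The nearest arrays were 0.32 apart and the Glut1-deficient pair 0.36 apart, and the log2 difference of 0.54 (95% interval 0.17 to 0.91) did not pass (limma adjusted p = 0.122).

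Thbd encodes thrombomodulin, which turns thrombin towards protein C and is made by suprabasal keratinocytes as well as endothelium. It read 5.62 and 5.47 on the wild-type arrays and 5.55 and 5.37 on the Glut1-deficient arrays. The arrays interleaved. The log2 difference was -0.08 and its 95% interval ran from -0.37 to 0.20 (limma adjusted p = 0.73), which leaves room for a modest change either way.

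In all, 5 of 9 members had both Glut1-deficient arrays above both wild-type arrays, as did 25.5% of all genes, and 1 had both below, as did 27.7%. The genotypes did not overlap for 6 of 9 members and for 53.2% of all genes. Separation of 2 arrays from 2 is thus common on these arrays and carries little by itself.

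Genes next to the risen members did not pass the test. F2r, F2rl1 and F2rl2 are neighbours on chromosome 13, and F2rl2 lies within the span of Iqgap2, a scaffold protein gene. Iqgap2 read 5.07 and 5.02 on the wild-type arrays and 5.10 and 5.19 on the Glut1-deficient arrays, a log2 difference of 0.10 (limma adjusted p = 0.573). On the outer sides of the 3 receptor genes, S100z differed by 0.38 and Sv2c by 0.19 (limma adjusted p = 0.395 and 0.528). Around Plaur on chromosome 7, the neighbours Irgc1 and Cadm4 differed by -0.18 and -0.20 (limma adjusted p = 0.305 and 0.366).

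The genes whose 4 array values, each taken from that gene's wild-type mean, lay nearest to those of Plaur were Dgkd, Dus4l and Herpud1, with largest distances of 0.016, 0.045 and 0.046. As many as 112 genes lay within 0.2 of Plaur on this measure. Nearest to F2rl2 were Peg3, Dct and Slc1a4, at 0.092, 0.105 and 0.126, and 6 genes lay within 0.2. Dct is a melanocyte pigment gene.

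Partners and regulators were counted in 7 lists of related genes, which together had 156 tested members. Of these, 8 rose and 1 fell, where 1.79% and 1.05% of all genes did, and the median of each list lay between -0.07 and 0.09. The lists, like the members, were written with earlier results known. Their counts at an unadjusted p under 0.05, given below for either direction, stand beside 22.2% of all genes.

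**Figure D3:**
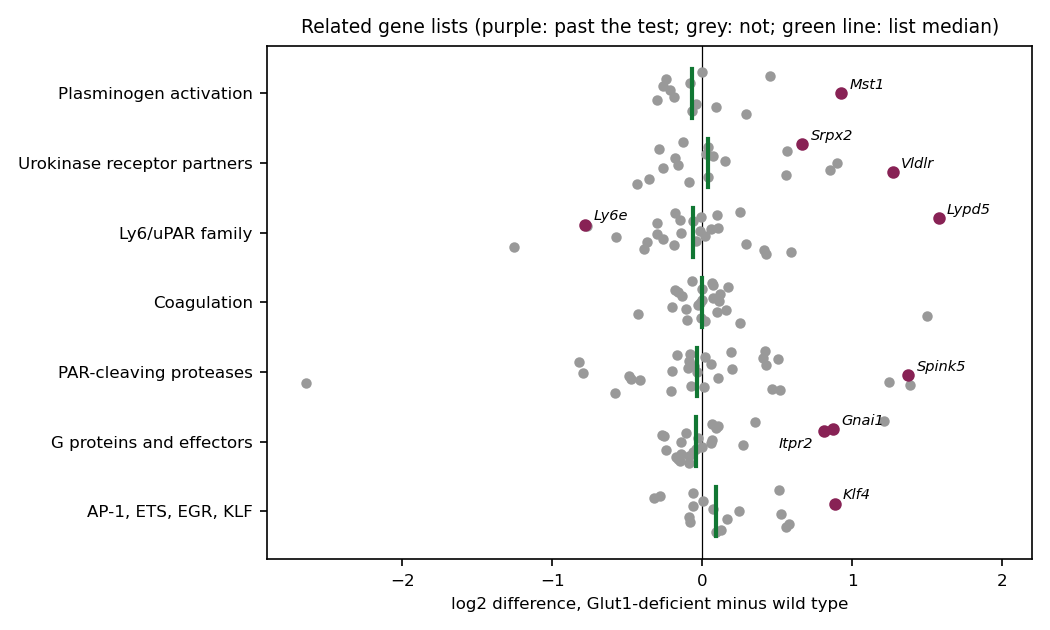
Log2 difference, Glut1-deficient minus wild type, of every tested gene of the 7 related lists, each gene a point, purple and named where it passed and grey where it did not, with the list median as a green line (vertical spread within a list is only for legibility). The medians lie close to 0, and the 9 named genes are scattered over 6 of the lists.

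Among 13 tested genes of plasminogen activation and its inhibitors, 1 rose, 0 fell in limma (2 at an unadjusted p under 0.05) and 12 did not pass, with a median of -0.07. The gene that rose was Mst1, which encodes macrophage-stimulating protein, a plasminogen-related ligand activated by proteolysis. It read 6.20 and 6.43 on the wild-type arrays and 7.32 and 7.17 on the Glut1-deficient arrays (1.90-fold, limma adjusted p = 0.0365). Plg, the zymogen itself, differed by -0.30, and Anxa2 and S100a10, the subunits of a plasminogen-binding surface complex, by -0.19 and -0.21 (limma adjusted p = 0.247, 0.276 and 0.277). Serpinb2, an intracellular and secreted inhibitor of urokinase, differed by -0.07 (limma adjusted p = 0.765). These 4 were named after their values were seen.

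Of 19 partners and clearance receptors of the urokinase receptor, 2 rose, 0 fell in limma (10 at an unadjusted p under 0.05) and 17 did not pass (median 0.04). Vldlr, a lipoprotein receptor that takes up urokinase bound to its inhibitor, read 5.72 and 5.85 on the wild-type arrays and 7.08 and 7.03 on the Glut1-deficient arrays. It rose 2.42-fold (limma adjusted p = 0.0156). Srpx2, a secreted ligand of the urokinase receptor, read 4.75 and 4.77 against 5.52 and 5.34 and rose 1.59-fold (limma adjusted p = 0.0476).

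Of the 27 tested genes of the Ly6/uPAR family, which share the 3-finger fold of the receptor, 1 rose, 1 fell and 25 did not pass (median -0.06). In limma 10 of them had an unadjusted p under 0.05. Lypd5 rose 2.99-fold, from 6.42 and 6.92 to 8.36 and 8.13 (limma adjusted p = 0.034). It lies on chromosome 7 with 3 protein-coding genes between it and Plaur. Ly6e, an abundant epithelial and interferon-responsive member, read 11.99 and 12.03 against 11.14 and 11.32 and fell by 0.78 on the log2 scale (limma adjusted p = 0.0376).

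None of the 24 coagulation factors and anticoagulants passed in limma (2 at an unadjusted p under 0.05). Tfpi2, a relative of Tfpi that inhibits plasmin and trypsin, had the smallest p. It read 5.93 and 5.07 on the wild-type arrays and 7.31 and 6.70 on the Glut1-deficient arrays, a log2 difference of 1.50 (limma adjusted p = 0.0963). The wild-type arrays were 0.86 apart, more than the 0.76 between the nearest arrays of the 2 genotypes. Serpina10, an inhibitor of factor X, differed by -0.43 and Vkorc1, the vitamin K reductase, by -0.20 (limma adjusted p = 0.191 and 0.303).

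A further list held 31 genes of proteases, listed as possible activators of these receptors, and of protease inhibitors. Cleavage of the receptors by the listed proteases was not examined. Of these genes 1 rose, 0 fell in limma (15 at an unadjusted p under 0.05) and 30 did not pass (median -0.03). Spink5, which encodes the epidermal kallikrein inhibitor LEKTI, rose 2.59-fold, from 7.37 and 7.26 to 8.82 and 8.56 (limma adjusted p = 0.0208). Among 25 G proteins, arrestins and effectors, 2 rose, 0 fell in limma (6 at an unadjusted p under 0.05) and 23 did not pass (median -0.04). They were Gnai1, an inhibitory G protein subunit (1.83-fold, limma adjusted p = 0.0226), and Itpr2, a calcium channel opened by inositol trisphosphate (1.76-fold, limma adjusted p = 0.0295).

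In the list of AP-1, ETS, EGR and KLF factors 1 of 17 rose, 0 fell in limma (7 at an unadjusted p under 0.05) and 16 did not pass (median 0.09). Klf4, a factor of suprabasal differentiation, read 7.52 and 7.51 on the wild-type arrays and 8.43 and 8.37 on the Glut1-deficient arrays (1.84-fold, limma adjusted p = 0.0216). The AP-1 genes Jun and Fos, of the families whose letters the 4 windows hold, differed by 0.58 and 0.56, Jund by 0.53, Junb by -0.32, Fosb by -0.09 and Fosl2 by -0.06. None of these passed (limma adjusted p from 0.0808 for Jun to 0.761 for Fosl2), and Fosl1 was not tested.

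Some keratinocyte markers passed the test too, all of them suprabasal. Of 8 basal markers 0 passed in limma (7 at an unadjusted p under 0.05, beside 22.2% of all genes), 5 had both Glut1-deficient arrays below both wild-type arrays and 2 had both above, with a list median of -0.30. Of 10 suprabasal markers 2 rose and 1 fell (4 at an unadjusted p under 0.05 in limma), where 1.79% and 1.05% of all genes did. The suprabasal list median was 0.19. Cdsn, the corneodesmosome protein gene, rose 5.52-fold and Sbsn 1.98-fold, while Ivl, the envelope precursor involucrin, was 2.99-fold lower (limma adjusted p = 0.0156, 0.0211 and 0.0208). Thbd and Klf4 are known from suprabasal cells, and the part of differentiation in their values was not tested.

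Several lists of markers of other cells held genes that differed on the same arrays. Of 14 fibroblast markers, 12 had both Glut1-deficient arrays above both wild-type arrays, as did 25.5% of all genes, and 0 passed in limma (11 at an unadjusted p under 0.05, beside 22.2% of all genes). Pdgfra, a receptor of fibroblasts, read 5.97 and 5.84 on the wild-type arrays and 8.64 and 7.47 on the Glut1-deficient arrays. The mean log2 level of the list was 4.97 to 5.03 on the wild-type arrays and 5.79 to 6.42 on the Glut1-deficient arrays. Array 1 of the Glut1-deficient genotype had a fibroblast median 1.19 above the wild-type mean and array 2 one 0.69 above it. Tfpi stood 0.72 and 0.36 above its wild-type mean on these arrays, F2r 0.51 and 0.31, F2rl2 1.78 and 1.68, Plaur 0.86 and 0.92, F3 0.33 and 0.41, and Plau -1.55 and -0.98. F2rl3 stood 0.26 and 0.09 above its wild-type mean, Plat at -0.11 and -0.56 and Thbd at 0.01 and -0.17. Array 1 was thus further from wild type than array 2 for the fibroblast list, Tfpi, F2r, F2rl2, F2rl3 and Plau, and the order was the other way round for Plaur, F3, Plat and Thbd.

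Of 10 melanocyte markers 4 rose, where 1.79% of all genes did (5 at an unadjusted p under 0.05 in limma, beside 22.2% of all genes). The list's mean log2 level was 4.90 to 5.07 on the wild-type and 5.61 to 5.66 on the Glut1-deficient arrays. Among 13 endothelial markers 1 rose, Kdr (4 at an unadjusted p under 0.05 in limma). That list's median was close to 0, with mean levels of 4.05 to 4.13 and 4.28 to 4.34. In the pericyte and smooth muscle list 1 of 9 fell, Acta2, where 1.05% of all genes fell (3 at an unadjusted p under 0.05 in limma). In the neutrophil list 2 of 8 fell (3 at an unadjusted p under 0.05 in limma). They were S100a8 and S100a9, which keratinocytes can also express. The platelet list, the cells in which F2rl3 is best known, had 0 of 7 past limma's test (2 at an unadjusted p under 0.05) and mean levels of 5.10 to 5.11 and 4.92 to 5.11. These means cover differences in both directions. Ppbp, the brightest of the list, differed by -1.78 and Itgb3 by 0.90 on the log2 scale (limma adjusted p = 0.113 and 0.12). The part of these cells in the values of the members was not tested, and in RNA from whole dishes a shift in the share of cells of a type and a shift in RNA per cell cannot be told apart.

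**Figure D4:**
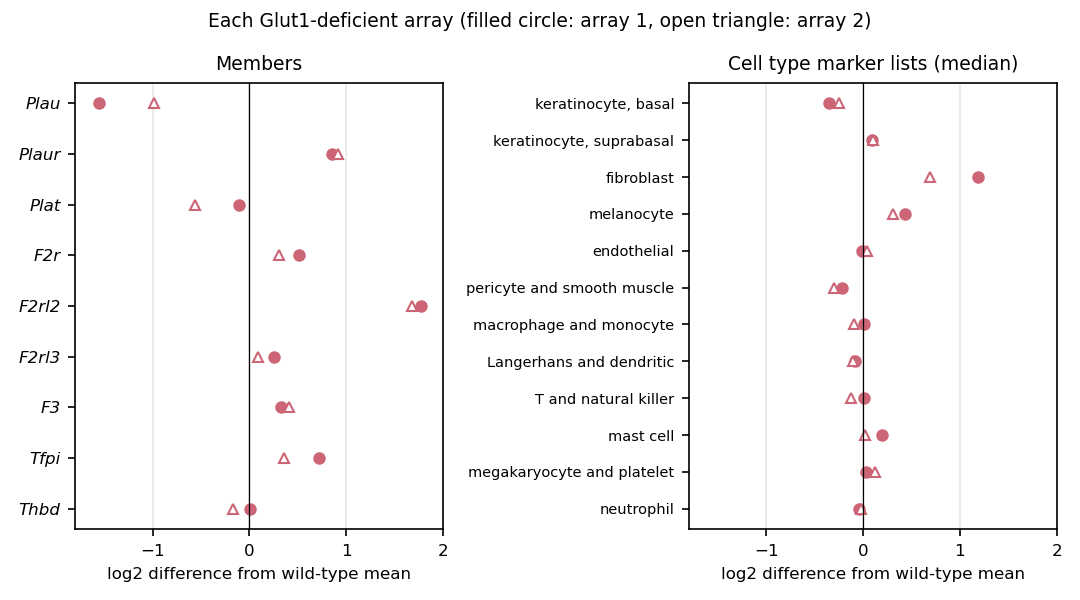
Left, each Glut1-deficient array's log2 value minus the wild-type mean for the 9 members, and right, the median of the same difference over each list of cell type markers, array 1 as a filled circle and array 2 as an open triangle. The fibroblast list stands at 1.19 and 0.69, the highest of the lists on both arrays, and F2rl2 at 1.78 and 1.68.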

How the data were processed

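RNA from 4 samples of cultured mouse keratinocytes, 2 wild-type and 2 Glut1-deficient, was hybridised to MoGene 2.0 arrays. The deposited log2 values, 1 per transcript cluster, are RMA values from the authors' run of Affymetrix Expression Console, as the submitters' processing notes name it. Its version and settings are not stated there. RMA removes differences in total signal between arrays. Of 41345 rows, 23521 have exactly 1 gene symbol, and the brightest row stood for each of 22180 genes. No dim row was filtered, and no scanner file or detection call was used here.

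Genotypes were compared with limma 3.58.1 in R 4.3.3 (lmFit, eBayes, 2 residual degrees of freedom and a prior of 2.95), as a two-sided test. P-values were adjusted by Benjamini-Hochberg across the 22180 genes, and 0.05 was the threshold. Exact permutation of 2 against 2 arrays cannot give a p below 0.333. The fit was also run on simulated arrays, whose outcome is not reported here, and no result given here rests on them. The sample titles call the 2 arrays of a genotype biological replicates. Whether their 2 pools came from different mice or culture days is not stated, and p-values then reflect only how these pools vary. The labels number arrays 1 and 2 in both genotypes, but deviations of same-numbered arrays had a correlation of -0.025 over genes, so the numbers were not taken as pairs. The members and lists were chosen with earlier results of these data known. Besides the members and Slc2a1, the text names list genes that passed (otherwise up to 3 with the smallest p), bright markers and the 3 genes with the most similar values to a risen member. Chromosomal neighbours, further genes of lists that had calls, and the genes of the closing section fall outside this rule and were named after their values were seen. Alternatives were other variance models, normalizations, rows, thresholds and a dim filter, the replicate block, and leaving out each array. Promoter windows came from RefSeq, and figures were drawn with matplotlib 3.10.9.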

Additional observations from a re-analysis of the deposited data

How the results depend on the processing

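Without any 1 array, 1 residual degree of freedom remains and the lone array of a genotype is taken to vary like the other genotype's arrays. Then 0 genes passed in limma (2948 to 4627 at an unadjusted p under 0.05), so 0 members and 0 list genes did, and Plau stayed between -1.555 and -0.981 on the log2 scale. The replicate block left 37 genes and 1 member, F2rl2 (adjusted p = 0.0479, and 0.0708 for Plaur), with 0 of the 156 list genes past limma's test (49 at an unadjusted p under 0.05). With 2 arrays per genotype the block leaves a single residual degree of freedom. With the variance following intensity, 2671 genes passed, with 4 members higher, 1 lower and 42 list genes, and with robust estimation 2729 genes and 40 list genes, again with 4 members higher and 1 lower. The genes at or above the median level numbered 11090, without F2rl3 and Tfpi, and 2327 of them passed (1214 higher and 1113 lower). Of the members left, 4 passed as higher and 1 as lower. Of the list genes left, which were fewer than 156, 27 passed. At an adjusted p under 0.1 the counts in limma were 1855 genes, 2 members higher, 1 member lower and 25 list genes. Median centring and the mean of a gene's rows each put 1 member, Plau, among those lower. The cause of these shifts was not tested. Over the alternatives that were run, the direction of a member changed only for Thbd, which ran from -0.168 without Glut1-deficient array 1 to 0.007 without array 2. Dim rows such as F2rl3 and Tfpi carry less signal over background, and no detection call was used here.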

Other observations

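Some genes of the related lists that did not pass the test are given here, and they were picked after their values were seen. Larger differences than some of these also did not pass. Mmp1a differed by 1.39, Ly6g6c by -1.25 and Rgs2 by 1.21 on the log2 scale (limma adjusted p = 0.135, 0.0822 and 0.147). Mmp9, a gelatinase whose zymogen plasmin can help to activate, read 10.18 and 10.14 on the wild-type arrays and 6.83 and 8.21 on the Glut1-deficient arrays, a log2 difference of -2.64 (limma adjusted p = 0.0565). The collagenase gene Mmp13 went the other way, from 7.05 and 7.40 to 8.78 and 8.16 (log2 difference 1.25, limma adjusted p = 0.0697). Itga5, the fibronectin receptor subunit that can associate with the urokinase receptor, differed by 0.56 and Itga3, the laminin receptor subunit, by -0.43 (limma adjusted p = 0.0533 and 0.0808). The transmembrane protease genes Tmprss11d and Tmprss2 differed by -0.80 and -0.82 (limma adjusted p = 0.0506 and 0.0976), and Prss8, the channel-activating protease prostasin, by 0.50 (limma adjusted p = 0.0824).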
